A study of Mus musculus with 45 samples.

Results

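Expression of 10 Wnt target genes was followed in male mouse ESCs as they left self-renewing culture, in which one of the starting media holds a GSK3 inhibitor. The genes were chosen by name as known targets, negative-feedback components or TCF/LEF factors of canonical Wnt signalling, with earlier results of these data known. These 10, called Wnt targets here, are among the 35372 genes counted in each of 45 RNA-seq libraries. They are Axin2, Nkd1 and Notum (negative feedback), Sp5, Cdx1 and Cdx2 (transcription factors induced by Wnt), Lef1, Tcf7 and Tcf7l1 (the TCF/LEF factors that carry the response on DNA) and Ngfr. The cells were wild-type E14tg2a ESCs, a single male 129/Ola line. In 2iL they were kept in serum-free N2B27 medium with the GSK3 inhibitor CHIR99021, the MEK inhibitor PD0325901 and LIF, and in SL in serum with LIF and no inhibitor. From each medium they were differentiated without LIF and inhibitors as EB (embryoid bodies in suspension in serum), EpiSC (adherent, serum-free N2B27 with Fgf2 and ActivinA) or Neural (adherent, serum-free N2B27 alone), and RNA was taken at days 0, 1, 1.5, 2, 2.5, 3, 5 and 7. Each culture and day is 1 library (23 from 2iL and 22 from SL), day 5 of EpiSC from 2iL was not analysed here, and a single SL library is day 0 of all 3 SL courses. The 3 cultures of a day stand in as replicates below. Between days, and between media at day 1, p-values measure the scatter left after the mean level of each culture. That scatter is pooled over all days, so that days of a course count as replicates too. At day 0, p-values measure the spread of the 3 undifferentiated 2iL libraries. Since the GSK3 inhibitor, the MEK inhibitor and serum all differ between 2iL and SL, and several of them change at once when differentiation starts, their parts in any difference cannot be told apart.

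In canonical Wnt signalling, a destruction complex built on Axin and APC lets GSK3 phosphorylate beta-catenin and mark it for degradation. Wnt ligands, or an inhibitor of GSK3, spare beta-catenin, which then enters the nucleus, binds TCF/LEF factors and switches on targets, several of which feed back to dampen the pathway. In mouse ESCs, GSK3 inhibition is known to relieve repression of pluripotency genes by Tcf7l1, and in the embryo the same pathway is known for inducing the primitive streak and the posterior mesoderm.

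The promoters of Sp5 and Axin2 are shown because these genes gave the largest and the best-known day 0 responses, and because Sp5 holds the motif that TCF/LEF factors recognise. Both are the 250 bases before the RefSeq transcription start on GRCm38.p6, forward strand, 5′ to 3′, with TCF/LEF heptamers in capitals. The Sp5 window is chr2:70474673-70474922 and the Axin2 window is chr11:108920099-108920348.
Sp5 promoter: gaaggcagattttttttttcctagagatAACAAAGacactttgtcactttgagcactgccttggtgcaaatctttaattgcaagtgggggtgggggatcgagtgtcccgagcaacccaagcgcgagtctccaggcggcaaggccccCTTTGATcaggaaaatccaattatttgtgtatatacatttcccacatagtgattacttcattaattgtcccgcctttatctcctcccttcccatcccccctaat
Axin2 promoter: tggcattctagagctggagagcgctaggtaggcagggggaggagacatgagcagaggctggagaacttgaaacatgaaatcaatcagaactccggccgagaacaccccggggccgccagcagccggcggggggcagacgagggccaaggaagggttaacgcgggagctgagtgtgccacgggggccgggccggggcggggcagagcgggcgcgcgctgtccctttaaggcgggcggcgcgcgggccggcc
The letters searched on both strands were CTTTG followed by AA, AT, TA or TT, heptamers that differ in their last bases, so that no run of letters matches more than 1 of them on a strand. Sp5 held 2 matches, starting 222 and 104 bases before the transcription start, the distal one on the opposite strand. Axin2 held none in this window. Of 12 promoters of the 8 members with an entry in the table, 2 held a match, the other being that of an alternative start of Lef1 at 147 bases before it. Over all 32851 promoters in the table, 14.8% of windows held at least 1 match and 1.43% held at least 2. A match is a run of letters and not a measured binding site.

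On GRCm38, Axin2 (ENSMUSG00000000142) spans chromosome 11 from 108920349 to 108950783, Notum (ENSMUSG00000042988) chromosome 11 from 120653788 to 120661175 and Nkd1 (ENSMUSG00000031661) chromosome 8 from 88521354 to 88594884. Sp5 (ENSMUSG00000075304) spans chromosome 2 from 70474923 to 70477729 and Cdx2 (ENSMUSG00000029646) chromosome 5 from 147300805 to 147307270. Lef1 (ENSMUSG00000027985) spans chromosome 3 from 131110471 to 131224356, Tcf7 (ENSMUSG00000000782) chromosome 11 from 52252371 to 52283014, Tcf7l1 (ENSMUSG00000055799) chromosome 6 from 72626378 to 72789254 and Ngfr (ENSMUSG00000000120) chromosome 11 from 95568818 to 95587735. Cdx1 is ENSMUSG00000024619. All 10 are protein-coding, and values are reads on their exons.

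Between 13093226 and 39804240 reads per library fell on genes, with a median of 18222720, and the EB libraries from 2iL were the deepest, at a median of 34490692. Levels are CPM, counts per 1000000 reads on genes, and 3 reads, the limit that a count of 0 allows, correspond to 0.0754 to 0.229 CPM depending on the library. Intervals on counts cover counting error only. The undifferentiated libraries carried the naive pluripotency markers, whose 6 genes summed to between 3934 and 4187 CPM in 2iL and 2249 CPM in SL. The SL day 0 library also held markers of extraembryonic endoderm, with all 5 genes detected and a sum of 338.8 CPM, against 2.13 to 3.99 CPM in the 2iL day 0 libraries. At days 5 and 7 the Neural libraries held neural progenitor markers at 229.1 to 563.8 CPM over 4 genes, and the extraembryonic endoderm list at 911.5 to 2072 CPM. In bulk RNA, fewer cells of a type and less RNA per cell cannot be told apart.

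To ask how the Wnt targets stood under GSK3 inhibition, the 3 libraries in 2iL at day 0 were set against the SL library. In 2iL, 7 of the 10 genes were higher and 0 were lower, among them the feedback genes Axin2 and Notum, all 3 Wnt-induced transcription factors, the repressor Tcf7l1 and Ngfr. Axin2, a scaffold of the destruction complex and the most used readout of the pathway, was at 80.9, 62.9 and 62.7 CPM in the EB, EpiSC and Neural day 0 libraries and at 15.7 CPM in SL. Notum, a secreted enzyme that inactivates Wnt ligands, was at 45.8, 46.6 and 42.4 CPM against 2.52 CPM. Both genes lay above SL in each 2iL library, by a log2 fold change of 2.19 ± 0.22 (SE) for Axin2 (edgeR adjusted p = 0.000204) and 4.21 ± 0.23 for Notum (adjusted p = 1.96e-05). Nkd1, which dampens the pathway at the level of Dishevelled, was at 3.0, 2.86 and 2.24 CPM against 2.85 CPM, so that SL fell inside the 2iL range (adjusted p = 0.974).

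The transcription factor genes had the widest day 0 differences. Sp5, a zinc-finger factor and direct Wnt target, was at 29.5, 21.0 and 23.4 CPM in 2iL and was nearly silent in SL, with 1 read or 0.0549 CPM. Pooled over libraries the ratio was 471, with an exact counting interval from 84.4 to 18610, and the fitted log2 fold change of 8.73 (adjusted p = 2.7e-05) depends on how that single read is handled. Cdx1, a caudal-type homeobox factor of the posterior embryo, was at 71.9, 43.9 and 67.6 CPM against 4.0 CPM (log2 fold change 4.0 ± 0.37, adjusted p = 0.000155). Cdx2, its relative in the posterior embryo and the trophoblast, was much lower, at 4.94, 1.40 and 2.19 CPM against 0.329 CPM (log2 fold change 3.19 ± 0.89, adjusted p = 0.0253). For all 3 factors no 2iL library came as low as SL, which was not counted over all genes. The 5 trophoblast markers summed to 62.0 to 65.4 CPM in 2iL and 35.1 CPM in SL, nearly all of it Tfap2c, with Elf5 at 0 to 0.0297 CPM in 2iL and 0.219 CPM in SL.

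The TCF/LEF genes differed less. Tcf7l1, the main TCF factor of ESCs and a repressor in the absence of beta-catenin, was at 51.4, 24.6 and 35.2 CPM against 15.2 CPM (log2 fold change 1.35 ± 0.37, adjusted p = 0.0223). Tcf7, which mostly activates, was at 31.9, 21.1 and 21.2 CPM against 16.0 CPM (log2 fold change 0.69 ± 0.26, adjusted p = 0.0788). Lef1, also an activator and a Wnt target itself, was at 6.07, 2.60 and 2.15 CPM against 1.04 CPM (log2 fold change 1.86 ± 0.67, adjusted p = 0.0646). The latter pair lay above SL in every 2iL library but did not pass the test. Ngfr, the low-affinity neurotrophin receptor, passed it at 28.0, 21.2 and 27.2 CPM against 7.63 CPM (log2 fold change 1.81 ± 0.26, adjusted p = 0.00133).

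**Figure D1:**
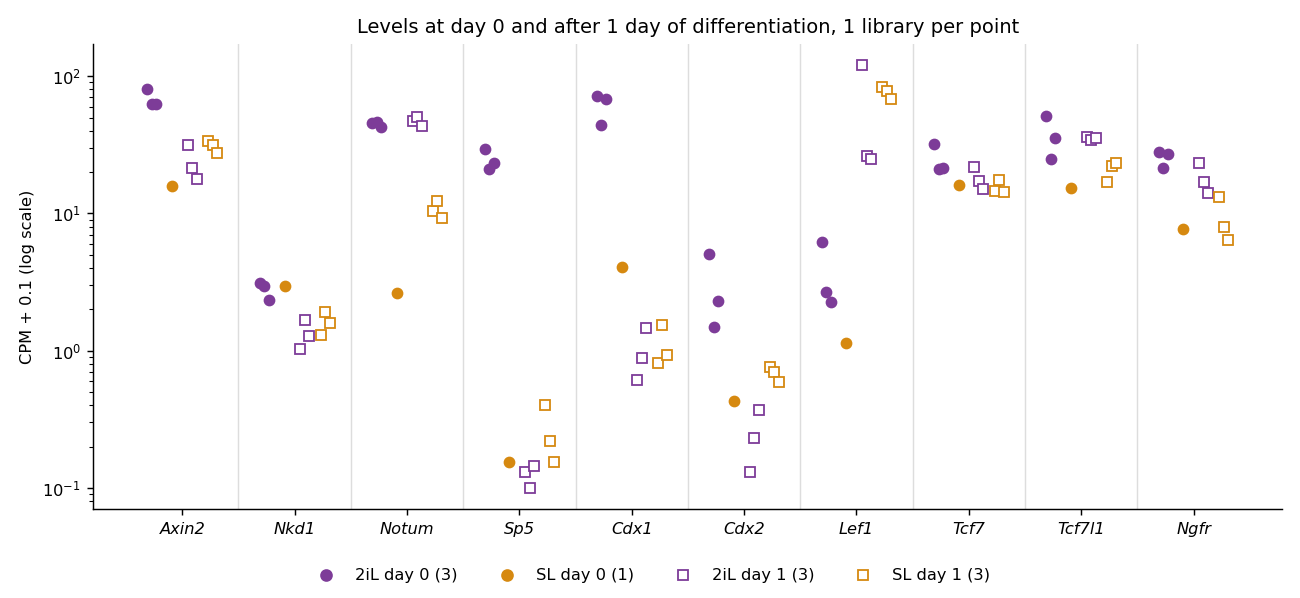
CPM plus 0.1 on a log axis for the 10 genes, 1 point per library, with filled circles for day 0 and open squares for day 1, purple for 2iL and orange for SL. The 2iL day 0 circles of Sp5 lie between 21.0 and 29.5 CPM while every other group shown has Sp5 under 0.3 CPM, and Lef1 rises from day 0 to day 1 in both media.

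Over all 14948 genes tested at day 0, 13.5% were higher in 2iL and 17.3% lower, and the median log2 fold change was 0.01, against 2.02 over the 10 Wnt targets. Per kilobase of exon, the level in 2iL fell in the order Cdx1 (34.9 ± 8.63 CPM per kb, SD, n = 3), Notum (18.7 ± 0.928), Axin2 (12.5 ± 1.90), Sp5 (11.7 ± 2.09), Tcf7l1 (9.45 ± 3.43), Tcf7 (9.42 ± 2.37), Ngfr (7.39 ± 1.09), Cdx2 (1.26 ± 0.821), Nkd1 (0.593 ± 0.0890) and Lef1 (0.410 ± 0.244). The neighbours from Axin2 down to Ngfr did not differ beyond their spread, nor did Cdx2, Nkd1 and Lef1. The SL side is a single library whose spread is taken from 2iL, and its extraembryonic endoderm markers, all 5 of which were called lower in 2iL, move with the same contrast. Their part in the differences was not tested. With the spread estimated over all 45 libraries, Cdx2 (adjusted p = 0.178) and Ngfr (adjusted p = 0.151) were no longer called.

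After 1 day without inhibitors and LIF, 5 of the 10 genes had fallen from their 2iL day 0 level and 1 had risen, against 14% lower and 14.6% higher of all 16306 genes tested. The falls were in Sp5, Cdx1, Cdx2, Axin2 and Nkd1, and the rise was in Lef1. The median log2 fold change was -0.83 over the 10 genes and 0.02 over all genes tested.

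Sp5 was the most completely lost. It had 1 read in EB (0.0302 CPM), 0 reads in EpiSC, which allows up to 0.198 CPM, and 1 read in Neural (0.0451 CPM). Day 0 exceeded day 1 by a pooled ratio of 910, with a counting interval from 252 to 7518 (adjusted p = 8.99e-05 in the edgeR fit). Cdx1 dropped to 0.513, 0.791 and 1.35 CPM, or 1.51 ± 0.693% (SD, n = 3) of day 0 (log2 fold change -6.26 ± 0.88, adjusted p = 8.7e-05). Cdx2 was at 0.0302, 0.132 and 0.271 CPM, on 9 reads in all (log2 fold change -4.47 ± 1.44, adjusted p = 0.0285). The day 0 and day 1 ranges of these 3 genes did not overlap, which was not counted over all genes either.

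The feedback genes differed at day 1. Axin2 was at 31.5, 21.2 and 17.8 CPM after 1 day, below each day 0 library, at 33.7 ± 5.28% of its starting level (log2 fold change -1.57 ± 0.43, adjusted p = 0.0121). Nkd1 was at 0.936, 1.58 and 1.17 CPM (log2 fold change -1.18 ± 0.43, adjusted p = 0.0479). Notum, in contrast, was at 46.8, 50.0 and 43.6 CPM, which overlaps its day 0 range (log2 fold change 0.04 ± 0.61, adjusted p = 0.975). Without the EpiSC libraries Axin2 (adjusted p = 0.134), Cdx2 (0.0974) and Nkd1 (0.157) were no longer called, and without the Neural libraries neither were Cdx2 (0.0984) and Nkd1 (0.151).

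Lef1 rose where the 5 called above fell. It reached 120 CPM in EB, 26.0 CPM in EpiSC and 24.9 CPM in Neural at day 1, each well above the highest day 0 library (log2 fold change 3.82 ± 0.78, adjusted p = 0.00169). Tcf7l1 was at 35.8, 34.1 and 35.1 CPM and Tcf7 at 21.5, 17.1 and 14.9 CPM, both overlapping day 0 (adjusted p = 0.962 and 0.365). Ngfr was at 23, 16.9 and 14 CPM, also overlapping (adjusted p = 0.614).

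The order of the decline over the next day set the genes apart. Sp5 and Cdx1 were at 0.0984 ± 0.0966% and 1.51 ± 0.693% of day 0 at day 1, and at 0.412 ± 0.499% and 0.859 ± 0.712% at day 1.5. Axin2 went from 33.7 ± 5.28% at day 1 to 21.5 ± 5.89% at day 1.5 and 19.8 ± 4.64% at day 2, without reaching the near-silence of the transcription factors. Notum started late and then fell steeply, from 104 ± 2.71% at day 1 to 48.3 ± 21.0% at day 1.5 and 12.3 ± 6.92% at day 2. Ngfr declined at 71.2 ± 17.2%, 39.4 ± 16.9% and 24.2 ± 13.1% over the same days. At day 1.5 Notum in EB was already at 24.3%, while in EpiSC and Neural it was at 62.7% and 58.0%. With 1 library per culture and day, a difference between cultures and one between libraries cannot be told apart. These percentages are descriptions of the courses and carry no test.

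**Figure D2:**
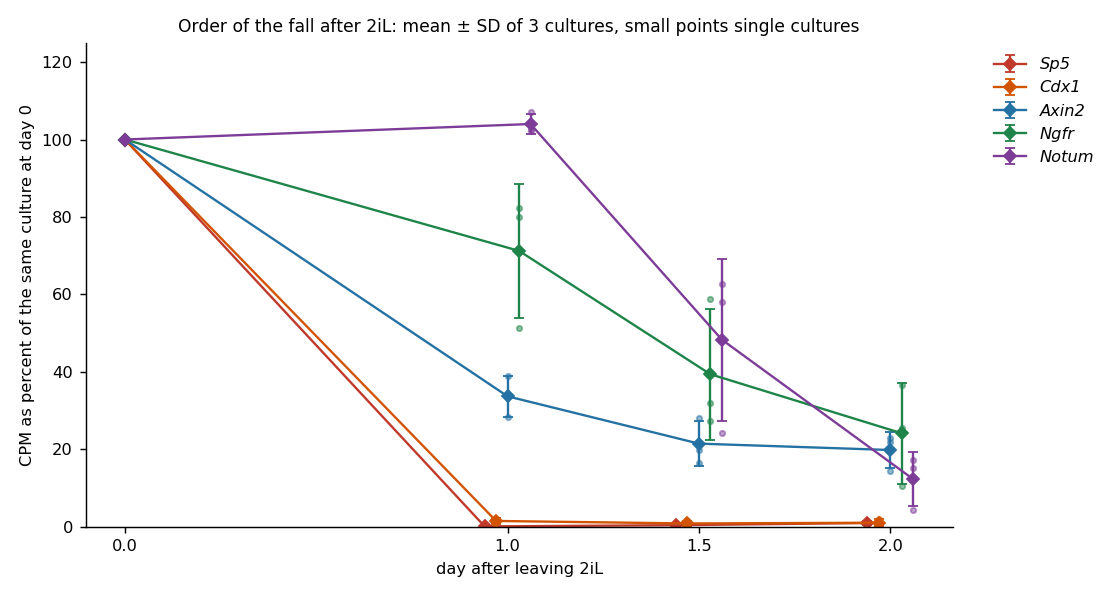
CPM as a percent of the same culture at day 0 (linear axis) against the day after leaving 2iL; diamonds and bars are the mean ± SD of the 3 cultures, small points the single cultures, shifted slightly sideways. Sp5 and Cdx1 are near 0 by day 1, Axin2 is at 33.7%, and Notum stays at 104% at day 1 before it falls to 12.3% at day 2.

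By day 3 from 2iL, 6 of the 10 genes were lower than at day 0 and 2 higher, where 24.1% and 27.2% of all genes tested were lower and higher. Notum had fallen to 1.09, 2.94 and 1.62 CPM (log2 fold change -4.66 ± 0.74, adjusted p = 8.07e-05) and Ngfr to 0.766, 8.92 and 2.20 CPM (log2 fold change -3.08 ± 0.68, adjusted p = 0.00141). Axin2, Cdx1, Sp5 and Tcf7l1 were the other 4 lower genes, at log2 fold changes of -1.78, -6.69, -5.58 and -1.04 and adjusted p-values of 0.00302, 1.8e-05, 0.000277 and 0.0108. The higher genes were Lef1, at 43.9, 89.7 and 33.9 CPM (log2 fold change 4.07 ± 0.79, adjusted p = 0.000472), and Nkd1, at 3.27, 7.05 and 6.95 CPM (log2 fold change 1.05 ± 0.40, adjusted p = 0.0381). Nkd1 thus passed from below its day 0 level at day 1 to above it at day 3. Its call was lost without the EpiSC libraries (adjusted p = 0.230) or the Neural ones (0.313), that of Axin2 without EpiSC (0.0745), and that of Tcf7l1 without Neural (0.186) or without the culture term (0.0633).

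At day 7 from 2iL, 5 genes were lower and 2 higher, against 29.9% and 33.8% of all genes tested, in a comparison that shares its day 0 libraries with the earlier ones. Cdx1 was by then the lowest of the 10, at 0.133, 0.105 and 0.173 CPM (log2 fold change -8.83 ± 1.05, adjusted p = 2.69e-06). Notum, Ngfr and Sp5 were also lower (log2 fold changes -4.23, -2.64 and -3.42, adjusted p = 9.44e-05, 0.00235 and 0.0034), the last with 10.4 CPM in EB against 0.897 and 0.462 CPM in EpiSC and Neural. Axin2 was at 65.9, 28.3 and 16.7 CPM and only just passed (log2 fold change -1.0 ± 0.43, adjusted p = 0.0495). Its call was lost without the EpiSC (adjusted p = 0.237) or Neural libraries (0.077) and without the culture term (0.0658), and that of Sp5 without EpiSC (0.0736). Nkd1 was by then the clearest riser, at 34.6, 12.3 and 11.2 CPM (log2 fold change 2.79 ± 0.42, adjusted p = 2.67e-05). Lef1 was still up at 76.7, 22.2 and 8.66 CPM (log2 fold change 3.04 ± 0.76, adjusted p = 0.00246). Cdx2 spread widest, from 31.6 CPM in EB to 0.791 CPM in EpiSC and 6.87 CPM in Neural (adjusted p = 0.117).

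**Figure D3:**
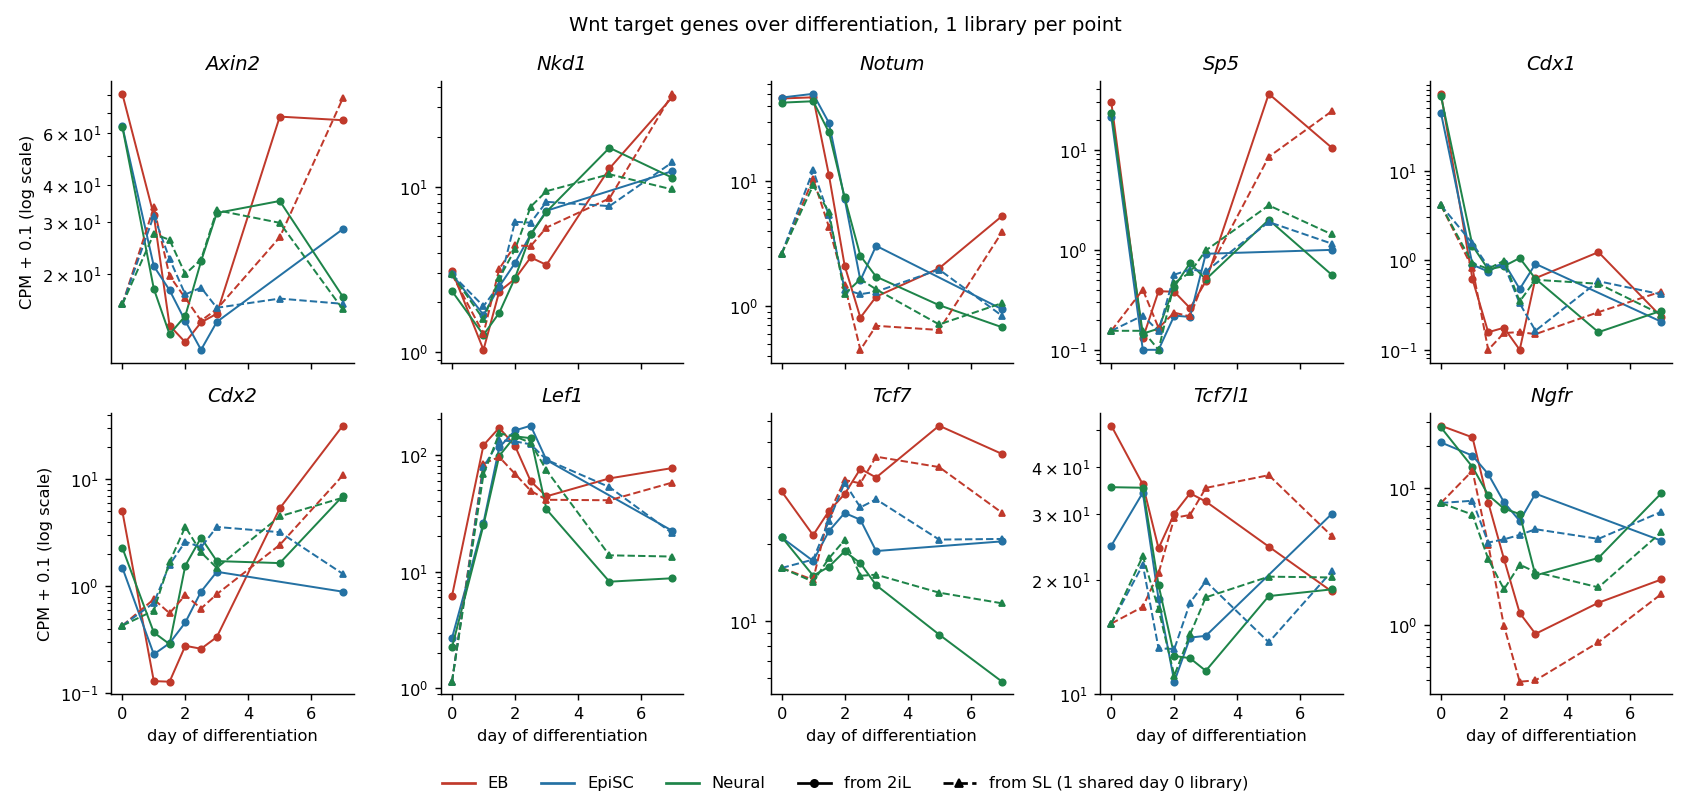
CPM plus 0.1 (log axis, its own range per gene) against day of differentiation for the 10 genes; red, blue and green are EB, EpiSC and Neural, solid lines with circles start in 2iL and dashed lines with triangles in SL, whose day 0 point is the same library in each course. Lef1 peaks between days 1.5 and 2.5 in all 6 courses, Notum is highest at day 1 in all 6, and the late return of Sp5 is seen in the EB courses, at up to 36.0 CPM.

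The courses from SL, which never met the GSK3 inhibitor, started from low Wnt target levels. At day 1 from SL, 1 gene was higher and 0 lower, against 7.08% and 6.98% of all 17107 genes tested. The riser was Lef1, at 83.5, 77.7 and 67.6 CPM in EB, EpiSC and Neural from 1.04 CPM (log2 fold change 6.25 ± 1.5, adjusted p = 0.00578). Its call was lost without the EpiSC libraries (adjusted p = 0.0532). Axin2, at 33.5, 31.4 and 27.3 CPM, lay above the 15.7 CPM of the SL day 0 library in all 3 cultures (adjusted p = 0.329). Notum was likewise above it, at 10.3, 12.1 and 9.16 CPM against 2.52 CPM (adjusted p = 0.147, and 0.00222 without the EB libraries). Cdx1 lay below, at 0.717, 1.44 and 0.823 CPM against 4.0 CPM (adjusted p = 0.165, and 0.0105 without EB). The day 0 side of each SL comparison is a single library, assumed to vary like the others. Leaving out a culture here removed all its libraries, of both media and every day.

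At day 3 from SL, Lef1 was higher (41.0, 90.3 and 73.3 CPM, log2 fold change 6.09 ± 1.49, adjusted p = 0.00303) and Cdx1 lower (0.0496, 0.0634 and 0.505 CPM, log2 fold change -4.40 ± 1.07, adjusted p = 0.00288), against 11.5% and 13% of all genes tested. Without the EpiSC libraries Cdx1 was no longer called (adjusted p = 0.0658), and without the EB libraries Nkd1 (0.00186) and Sp5 (0.0404) were called higher as well. At day 7, 3 were higher and 1 lower, against 16.8% and 19.5%. These were Lef1 (log2 fold change 4.75 ± 1.43, adjusted p = 0.01), Nkd1 (2.79 ± 0.66, adjusted p = 0.0014) and Sp5 (adjusted p = 0.0172), and Cdx1 among the lower (-3.77 ± 1.02, adjusted p = 0.00473). Sp5 stood at 24.1 CPM in EB, 1.05 CPM in EpiSC and 1.33 CPM in Neural, a pooled ratio to the single day 0 read of 181 with a counting interval from 32.3 to 7162. Cdx1 was not called at day 7 without the EpiSC (adjusted p = 0.0631) or the Neural libraries (0.0539).

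**Figure D4:**
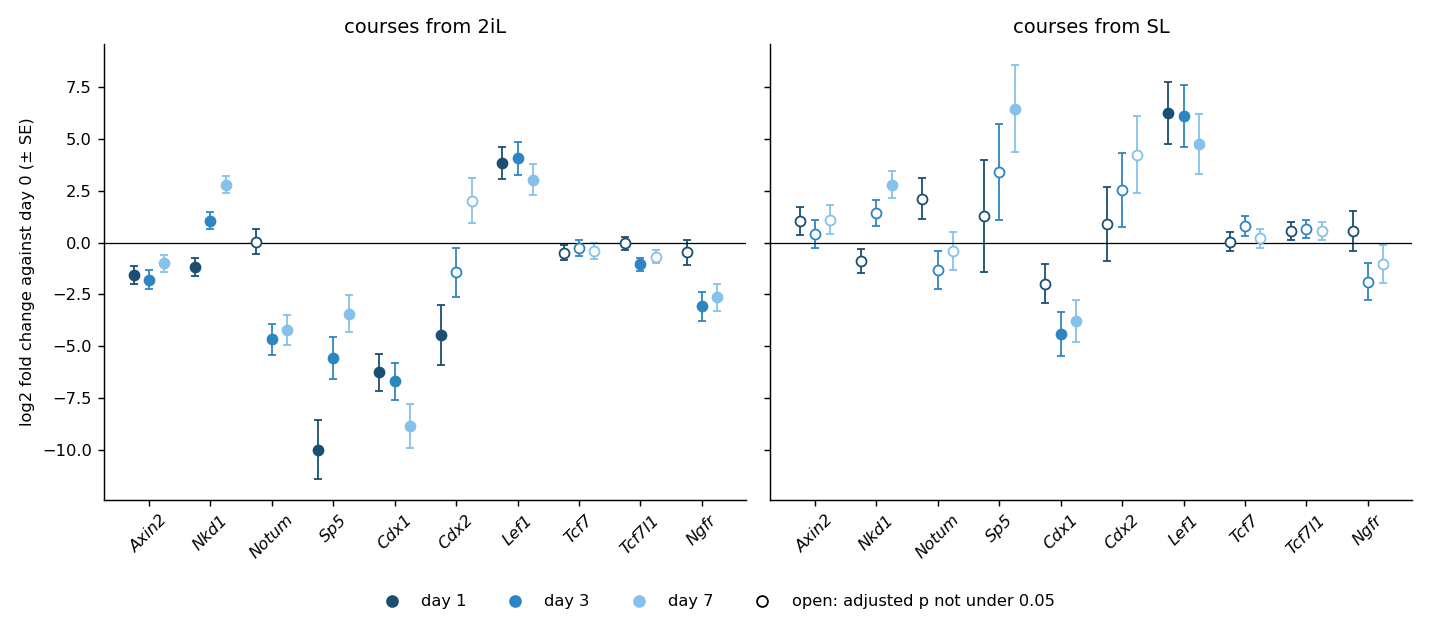
Fitted log2 fold change ± SE of each gene at days 1, 3 and 7 against day 0, in the courses from 2iL (left) and from SL (right); filled points passed an adjusted p of 0.05. From 2iL, Sp5, Cdx1 and Axin2 lie below 0 on all 3 days and Lef1 above, while from SL only Cdx1 is below 0 and filled.

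The change over day 1 was then compared between the media, which asks whether leaving 2iL differs from leaving SL. It equals the difference between media at day 1 less that at day 0. It uses the same day 0 libraries, so it is not independent of the day 0 comparison. In 3 of the 10 genes the change was lower from 2iL and in 0 higher, against 3.83% and 4.3% of all genes tested. Axin2 fell in all 3 courses from 2iL and lay above day 0 in all 3 from SL, a difference in log2 change of -2.63 ± 0.84 (adjusted p = 0.0484). For Cdx1 the difference was -4.37 ± 1.37 (adjusted p = 0.0444), with declines in all 6 courses that were deeper from 2iL. For Sp5 it was -11.23 ± 2.92 (adjusted p = 0.015), a value that rests on 1 read at SL day 0 and 2 reads at 2iL day 1. The calls of Axin2 and Cdx1 were lost without the culture term (adjusted p = 0.102 and 0.196), without the filter on low counts (0.0647 and 0.0561) and under upper-quartile normalization (0.0597 and 0.0513), and all 3 were lost without the EpiSC libraries (Axin2 0.263, Cdx1 0.298, Sp5 0.129). Without the Neural libraries those of Axin2 (0.0802) and Sp5 (0.0529) were lost.

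At day 1 itself, 1 of the 10 genes was higher and 0 were lower in cells from 2iL than in cells from SL, against 6% and 7.25% of all genes tested. The gene called was Notum, at 43.6 to 50.0 CPM from 2iL and 9.16 to 12.1 CPM from SL (log2 fold change 2.17 ± 0.60, adjusted p = 0.0145), a call lost without EpiSC (0.182) or Neural (0.119). Axin2 overlapped, at 17.8 to 31.5 CPM from 2iL and 27.3 to 33.5 CPM from SL (log2 fold change -0.40 ± 0.45, adjusted p = 0.626), and so did Cdx1, Lef1, Tcf7 and Nkd1. Non-overlap between the origins at day 1 was not counted over all genes. Tcf7l1 and Ngfr lay above the SL range in all 3 cultures from 2iL without passing the test (adjusted p = 0.0926 and 0.378). Sp5, at 0 to 0.0451 CPM against 0.0549 to 0.299 CPM, and Cdx2, at 0.0302 to 0.271 CPM against 0.494 to 0.657 CPM, lay below the SL range in all 3 and did not pass either (adjusted p = 0.478 and 0.335). For Sp5 these ranges rest on 2 reads in all from 2iL and 8 from SL, too few to set the origins apart. For Cdx2 they rest on 9 and 30 reads. Extraembryonic endoderm markers still separated the origins, at sums of 11 to 15.1 CPM from 2iL and 617.9 to 1291 CPM from SL, with 5 of 5 genes called. Their part in the Notum difference was not tested.

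Several turns were shared by all 6 courses, of which the 3 from SL have their day 0 library in common. Such shared turns were not counted over all genes. Lef1 was highest between days 1.5 and 2.5 in each course, at 95.4 to 177 CPM. Nkd1 was lowest at day 1 in each course, at 0.936 to 1.80 CPM, and highest at day 5 or 7, at 11.8 to 36.1 CPM. Its fall at day 1 was called from 2iL (edgeR adjusted p = 0.0479), a call lost in 3 of the alternatives, and was not called from SL (adjusted p = 0.336). Notum was highest at day 1 in each, at 43.6 to 50.0 CPM from 2iL and 9.16 to 12.1 CPM from SL. From 2iL that was 102.2 to 107.1% of the same culture at day 0, a change not called (edgeR adjusted p = 0.975). From SL it was 363.2 to 480.4% of the single day 0 library, also not called (adjusted p = 0.147).

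Among cultures at days 2.5 and 3, EB was set against Neural over 4 libraries each, with every combination of medium and day as a block. The 4 libraries are 2 days of 2 courses, so that days of a course count as replicates and p-values over them are too small. Cdx1 was too low to be tested, and of the other 9 genes 2 were higher in EB and 6 lower, against 20.5% and 21.2% of all genes tested. The TCF factors were higher, Tcf7 at 34.3 to 43.6 CPM in EB and 13.7 to 16.7 CPM in Neural (log2 fold change 1.22 ± 0.14, adjusted p = 0.00013), and Tcf7l1 at 29.7 to 35.1 CPM against 11.4 to 17.9 CPM (1.14 ± 0.11, adjusted p = 6.3e-05). The feedback genes were lower, Axin2 at 13.7 to 15.2 CPM in EB and 22.0 to 32.8 CPM in Neural (-1.02 ± 0.14, adjusted p = 0.000459), Nkd1 at 3.27 to 5.56 CPM against 5.04 to 9.28 CPM (adjusted p = 0.00111) and Notum at 0.347 to 1.09 CPM against 1.26 to 2.43 CPM (adjusted p = 0.00387). Cdx2 (log2 fold change -2.56, adjusted p = 0.00365), Ngfr (-2.55, adjusted p = 0.00054) and Lef1 (-0.91, adjusted p = 0.0115) were lower too, though Lef1 overlapped between 41.0 to 59.1 CPM in EB and 33.9 to 138 CPM in Neural. Among the ligands of the same libraries, Wnt8a stood out at 56.2 to 145 CPM in Neural and 1.34 to 6.47 CPM in EB (log2 fold change -5.24 ± 0.25, adjusted p = 1.96e-06). Using the 2iL libraries alone, Lef1 (adjusted p = 0.186) and Notum (0.0575) were not called.

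At days 5 and 7 the same comparison, again with 2 days of 2 courses on each side, had fewer calls. Of the 9 tested, Sp5, Lef1 and Tcf7 were higher in EB and Ngfr lower, against 13.1% and 15.7% of all genes tested. Sp5 was at 36.0 and 10.4 CPM in EB from 2iL and 8.38 and 24.1 CPM in EB from SL (days 5 and 7), and at 0.462 to 2.68 CPM in Neural (log2 fold change 3.54 ± 0.49, adjusted p = 0.00353). Lef1 was at 40.6 to 76.7 CPM in EB and 8.09 to 13.7 CPM in Neural (2.41 ± 0.37, adjusted p = 0.00455), and Tcf7 at 26.3 to 57.6 CPM against 5.71 to 12.8 CPM (2.01 ± 0.28, adjusted p = 0.00361). The EB and Neural ranges of these 3 genes did not overlap, again without a count over all genes. Lef1 was thus called lower in EB at days 2.5 and 3 and higher at days 5 and 7, whereas Tcf7 was higher and Ngfr lower in EB at both stages. Ngfr, also a marker of neural crest, was at 0.653 to 2.05 CPM in EB and 1.78 to 9.01 CPM in Neural (-1.70 ± 0.41, adjusted p = 0.0187). The 4 neural crest markers summed to 10.7 to 23.5 CPM in EB and 5.66 to 12.7 CPM in Neural, where Sox10 was at 0 to 0.223 CPM.

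Axin2 at these days was at 67.8 and 65.9 CPM in EB from 2iL and 26.6 and 78.0 CPM in EB from SL, against 15.2 to 35.2 CPM in Neural, and fell just short of the threshold (log2 fold change 1.19 ± 0.39, adjusted p = 0.0522). In EB from 2iL it was thus back within the range it had in 2iL at day 0. Cdx2 reached 31.6 and 10.8 CPM in EB at day 7 from 2iL and SL (adjusted p = 0.262), whereas Cdx1 was at 1.13 CPM or less in every library of days 5 and 7. The trophoblast list, of which Cdx2 is a known partner, summed to 378.1 CPM in the EB library from 2iL at day 7, of which Hand1 made up 364 CPM, with Elf5 at 0.186 CPM. With the libraries of 1 medium alone no member was called (0 of all genes tested from 2iL and 138 from SL), and the log2 fold changes of Sp5 were then 4.23 and 2.89, of Lef1 2.93 and 1.80, and of Tcf7 2.72 and 1.32.

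The same EB libraries carried primitive streak and early mesoderm markers, whose 6 genes summed to 146.5 to 725.3 CPM in EB and 3.79 to 7.88 CPM in Neural, where Mesp1 and Msgn1 had 0 reads; all 6 were called higher in EB. T, a streak factor and known Wnt target, was at 369.7 and 73.1 CPM in EB from 2iL, 44.7 and 56.2 CPM in EB from SL and at most 0.750 CPM in Neural. Wnt3, the ligand needed for streak formation, was at 6.91 to 25.6 CPM in EB and 2.65 to 3.39 CPM in Neural (log2 fold change 2.12 ± 0.48, adjusted p = 0.0153), and Rspo3, a secreted enhancer of Wnt signals, at 4.52 to 34.5 CPM against 0.221 to 0.808 CPM (4.97 ± 0.52, adjusted p = 0.00162). Extraembryonic endoderm markers moved the other way, with sums of 67.7 to 607.9 CPM in EB and 911.5 to 2072 CPM in Neural and 4 of 5 genes called. The part of these cell types in the differences of the Wnt targets was not tested.

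**Figure D5:**
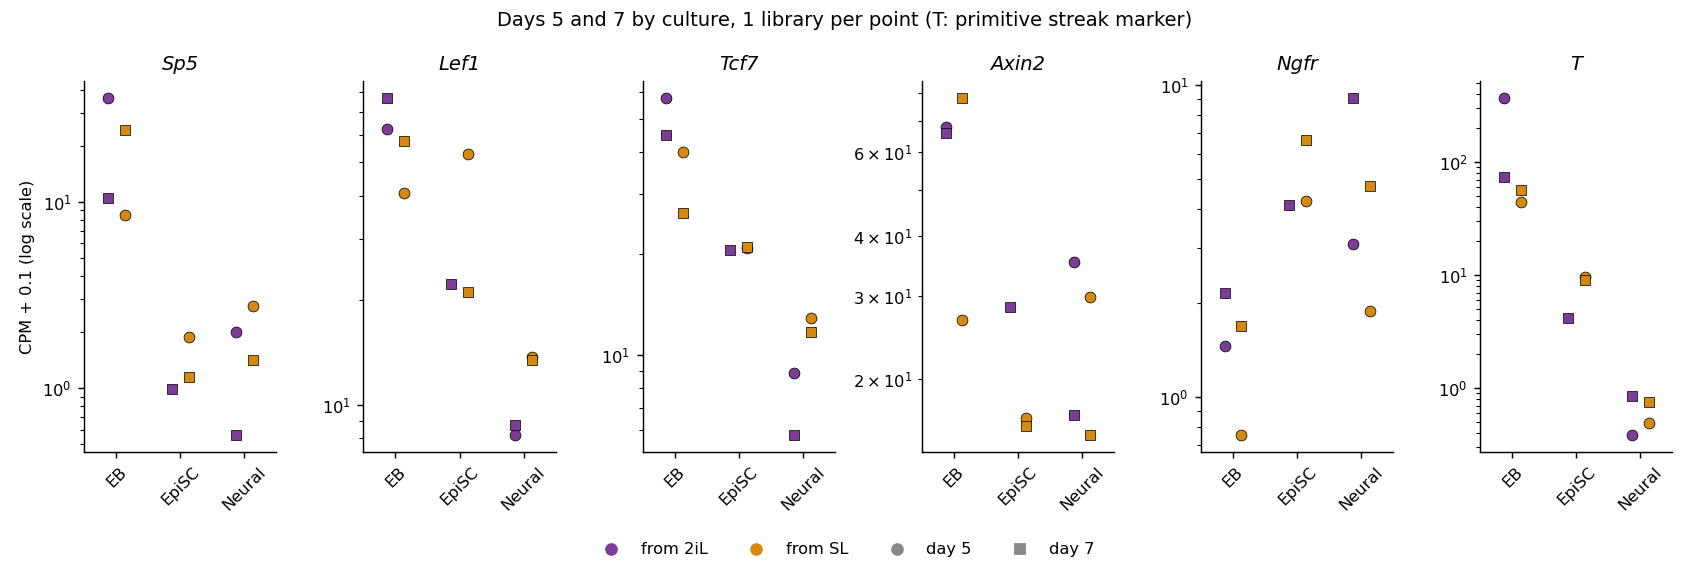
CPM plus 0.1 (log axis, its own range per gene) of 5 Wnt targets and of the streak marker T at days 5 (circles) and 7 (squares) in EB, EpiSC and Neural, purple for cells from 2iL and orange for cells from SL, 1 library per point. Sp5, Lef1, Tcf7 and T are higher in all 4 EB libraries than in any Neural library, with Sp5 at 8.38 to 36.0 CPM in EB.

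EpiSC was set against Neural at days 5 and 7 in the same fit. With 3 libraries against 4 in Neural, 1 gene was higher and 0 lower, against 7.35% and 8.67% of all genes tested. It was Tcf7, at 20.4 to 20.8 CPM against 5.71 to 12.8 CPM (log2 fold change 1.08 ± 0.30, adjusted p = 0.0457), a call lost without the filter on low counts (0.0502) and within either medium (0.321 and 0.139). Lef1 was at 22.2, 52.6 and 21.1 CPM, above all Neural libraries, and did not pass the threshold (log2 fold change 1.37 ± 0.39, adjusted p = 0.0504). Sp5 was as low as in Neural, at 0.897 to 1.79 CPM (log2 fold change -0.11 ± 0.55, adjusted p = 0.908).

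The rest of the pathway was read from 6 lists with 76 genes in all. The shares of all genes tested, to read the counts against, were 13.5% higher and 17.3% lower at day 0 in 2iL against SL, and 14.6% higher and 14% lower at day 1 after 2iL. The frizzled and LRP receptors had 3 genes higher and 1 lower in 2iL than in SL, and 2 higher and 4 lower at day 1 after 2iL, of 12 tested, of which the 1 lower at day 0 and the 2 higher at day 1 are near or under those shares. Fzd10 followed the course of the targets, at 56.3 ± 11.2 CPM (SD, n = 3) in 2iL, 5.16 CPM in SL and 9.06 ± 1.46 CPM at day 1 (log2 fold change -2.64 ± 0.46, adjusted p = 0.000528), and Fzd8 and Fzd5 fell with it (-1.15 and -1.42, adjusted p = 0.0124 and 0.00411). Fzd7 rose, from 37.5 ± 9.43 to 179 ± 12.1 CPM (2.28 ± 0.34, adjusted p = 0.000132), and Fzd2 rose from 4.89 ± 1.14 to 10.2 ± 1.94 CPM (adjusted p = 0.0086).

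Of the extracellular and membrane inhibitors, 2 of 12 tested were higher in 2iL than in SL and 0 lower, and at day 1 after 2iL 5 of 14 had fallen and 0 had risen, where 13.5% of all genes were higher at day 0 and 14% lower at day 1. Apcdd1, a membrane inhibitor of Wnt, was at 20.7 ± 4.57 CPM in 2iL, 6.75 CPM in SL and 7.96 ± 0.870 CPM at day 1 (log2 fold change from day 0 -1.37 ± 0.40, adjusted p = 0.0178). Rnf43, a ubiquitin ligase that removes frizzled receptors, went from 1.53 ± 0.442 to 0.0471 ± 0.0179 CPM (-5.20 ± 0.78, adjusted p = 0.000153), while its relative Znrf3, higher in 2iL than in SL (1.0 ± 0.27, adjusted p = 0.023), was at 25.2 ± 2.23 CPM against 32.1 ± 7.68 CPM (adjusted p = 0.0561). Dkk3, Dkk1 and Sfrp1 were the other inhibitors to fall (-2.50, -2.62 and -1.86, adjusted p = 0.000339, 0.0206 and 0.0186). Dkk1 after SL was at 8.95 to 21.6 CPM at day 1 against 0.0903 to 0.395 CPM after 2iL, and its change over day 1 differed between the media (-5.04 ± 1.38, adjusted p = 0.0215).

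Most ligands were scarce in undifferentiated cells. At day 0, 1 of 11 tested was higher in 2iL and 5 lower, Wnt5b being the higher at 2.01 ± 0.330 CPM against 0.274 CPM (2.90 ± 0.63, adjusted p = 0.00855), and Wnt6 among the lower at 0.661 ± 0.478 CPM against 7.68 CPM. At day 1 after 2iL 1 of 15 had risen and 3 had fallen, and at day 7 10 of 15 were higher and 0 lower, against 14.6% and 14% of all genes at day 1 and 33.8% and 29.9% at day 7. R-spondins and their receptors had 2 of 6 higher at day 1 and 5 of 6 at day 3, with 0 lower on either day, where 27.2% of all genes were higher at day 3. Of the destruction complex, 2 of 12 had risen and 4 had fallen at day 1, the rises near the 14.6% of all genes. Gsk3b, the kinase that the inhibitor targets, was at 133 ± 18.8 CPM in 2iL, 75.0 CPM in SL and 72.3 ± 11.8 CPM at day 1 (-0.91 ± 0.12, adjusted p = 4.62e-05), and its change over day 1 differed between the media (-0.97 ± 0.19, adjusted p = 0.0017). Of the nuclear partners 1 of 10 had risen and 3 had fallen, again against 14.6% and 14% of all genes, with the corepressors moving apart, Tle4 up (1.52 ± 0.30, adjusted p = 0.00133) and Tle3 down (-1.06 ± 0.23, adjusted p = 0.00275).

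The 4 pluripotency genes that Tcf7l1 is known to bind and repress had 3 higher and 0 lower in 2iL than in SL, and 3 of 4 had fallen at day 1 after 2iL, against 13.5% of all genes higher and 14% lower. Tfcp2l1 was at 1892 ± 116 CPM in 2iL, 622.6 CPM in SL and 230.2 ± 56.7 CPM at day 1 (-3.12 ± 0.47, adjusted p = 0.000141), Klf2 fell by 2.13 on the log2 scale (adjusted p = 0.00653) and Esrrb by 1.48 (adjusted p = 0.0199), while Nanog was at 221.2 ± 46.7 CPM against 928 ± 85.9 CPM (adjusted p = 0.0624). All 4 were lower by day 3, against 24.1% of all genes tested, when Tcf7l1 itself was also lower. They also belong to the 6 naive pluripotency markers, of which 6 were lower at day 3 from 2iL and 6 from SL. The part of Tcf7l1 in these falls was not tested. In the courses from SL, which had no inhibitor, all 4 were lower at day 3 too, against 13% of all genes tested. In 0 of the 4 was the change over day 1 called different between the media. Over all genes tested 3.83% were lower and 4.3% higher from 2iL, so a count of 0 is near those shares.

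Across the 45 libraries, the 10 genes did not move as a block. On log2(CPM + 1), the closest pair was Axin2 and Sp5 (Pearson r = 0.809 over 45 libraries), followed by Notum and Ngfr (0.802) and Cdx2 and Nkd1 (0.745), while the most opposed were Nkd1 and Notum (-0.613) and Lef1 and Cdx1 (-0.594). Libraries of a course share cells, medium and day, so these values describe the series and carry no test. Among 15327 genes above a low level, those most like Axin2 were Zfp704 (r = 0.786), Dyrk1a (0.774), Klhl32 (0.736), 2700046A07Rik (0.732) and Atp8b2 (0.731), and those most like Sp5 were Fam53b (0.849), Ephb4 (0.816), Cpxm2 (0.815), Rftn2 (0.804) and 1700084C01Rik (0.802). Fam53b was at 49.1 ± 2.68 CPM in 2iL, 9.55 CPM in SL and 5.5 ± 0.229 CPM at day 1 after 2iL, and Zfp704 at 169.9 ± 13.8, 84.6 and 59.5 ± 8.88 CPM. Without the 4 day 0 libraries none of these 10 names stayed among the closest 5, and those of Sp5 became Grrp1 (0.929), Cxx1c (0.919), Aplnr (0.914), T (0.904) and Evx1 (0.892) over 41 libraries.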

How the data were processed

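Strand-specific, rRNA-depleted RNA-seq was analysed for 45 libraries of E14tg2a ESCs. The authors trimmed reads with TrimGalore, mapped them to GRCm38 with TopHat2 and Ensembl gene models, assigned strand-specific reads to genes with featureCounts, and deposited raw counts of 35372 genes per library without normalization; the DESeq2 normalization of the study is not part of the deposited files. Rows without a gene symbol (435 tRNAs, at most 0.0014% of counts) were left out of the search for similar genes, and entered the tests where they passed the filter.

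CPM was computed here as the count over the library total. Fits used edgeR 4.0.16 in R 4.3.3 (TMM factors, filterByExpr, quasi-likelihood F-test over all genes passing the filter, Benjamini-Hochberg adjustment, threshold 0.05), and SE is the log2 fold change over the square root of F. Days within a medium and the media at day 1 were fitted with day and culture as terms, EB, EpiSC and Neural with each combination of medium and day, and day 0 with the 4 day 0 libraries. Culture pairs the libraries by label. Their deviations from the day means correlated at a mean of 0.458 within a culture (108 pairs) and -0.220 between cultures (216 pairs). Deviations from a day mean cancel over the cultures of that day. The between-culture value therefore follows from the within-culture one and adds nothing to it. The day 0 libraries were not among these pairs, so whether culture pairs them with the later days was not tested. The code was tested on simulated data. DESeq2 1.42.0, upper-quartile scaling, no filter, no culture term, fewer or more libraries and each culture left out in turn were alternatives. The genes and lists were chosen with earlier results of these data known. Named genes of the lists are up to 6 per list with the largest called change at day 0 or day 1, plus markers that move with a result; T, Wnt3, Wnt8a, Rspo3, Hand1, Elf5 and Tfap2c were chosen after their values were seen. Similar genes are the 5 highest Pearson correlations on log2(CPM + 1) among genes above 1 CPM in at least 3 libraries. Promoters are RefSeq sequences, GRCm38.p6. Positions are from a GRCm38 annotation in which 34599 genes were found. Plots used matplotlib.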

Additional observations from a re-analysis of the deposited data

Results flagged for a closer look

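By the test of the difference, the change over day 1 differed between cells leaving 2iL and cells leaving SL in 3 of the 10 Wnt targets. All 3 were lower from 2iL, against 3.83% of all genes tested. The log2 change from 2iL minus that from SL was -2.63 for Axin2, -11.23 for Sp5 and -4.37 for Cdx1, each past the edgeR threshold for the interaction of day and medium. The calls of Axin2, Cdx1 and Sp5 were lost in 5, 4 and 2 of the alternatives. Cdx2 went down in all 3 courses from 2iL and lay above the single day 0 library in all 3 from SL. Its difference of -5.43 on the log2 scale did not pass the threshold (adjusted p = 0.144), and passed it with DESeq2 (adjusted p = 0.0253). From SL its pooled ratio of day 1 to day 0 was 1.77, with a counting interval from 0.723 to 5.19. The Sp5 value rests on 1 read in the SL day 0 library and 2 reads at day 1 from 2iL, and the Cdx2 value on 6 and 9 reads.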

How the results depend on the processing

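Of the values of single Wnt targets that passed the threshold, 344 recomputed values stayed past it in the same direction and 49 did not; of those that did not pass, 28 passed under an alternative and 20 changed sign. With each culture left out in turn, the number of the 10 genes called was 7 to 9 at day 0, 3 to 6, 6 to 8 and 6 to 8 at days 1, 3 and 7 from 2iL, 0 to 3, 1 to 4 and 3 to 5 from SL, 0 to 4 for the change over day 1 between media and 0 to 2 for origin at day 1. The change between media kept 1 of 3 calls without the filter, with upper-quartile scaling and without the replicate block of culture. For EB against Neural at days 5 and 7, 0 genes were called with the libraries of either medium alone, a fit in which 0 (2iL) and 138 (SL) of all genes passed. For EpiSC against Neural the count was 2 with DESeq2, upper-quartile scaling or no replicate block, and 0 without the filter or within either medium. Of the 5 genes most like Axin2, 3 were shared with a pseudocount of 0.1 and 0 without the day 0 libraries, and the same held for Sp5. The replicate block changed the Wnt target calls named in the report and no other, apart from Axin2 (adjusted p = 0.0309) and Notum (0.0467), which passed without it for EB against Neural at days 5 and 7, and Lef1 (0.0254), which passed for EpiSC against Neural.

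Values that changed sign were those of genes that did not pass the threshold. At day 0 Nkd1 was at 0.013 without the filter, 0.033 with the spread of 45 libraries and -0.095 to 0.068 with a 2iL library left out. From 2iL, Tcf7l1 at day 1 was at 0.0057 with upper-quartile scaling and -0.25 to 0.18 with a culture left out, and Tcf7 at day 7 at -0.92 to 0.14. From SL, Tcf7 at day 1 was at -0.0077 with upper-quartile scaling, -0.0070 without the block, -0.0011 without EpiSC and -0.18 without Neural, and with a culture left out Axin2 was at -0.14 to 0.59 at day 3 and -0.16 to 1.55 at day 7, and Notum at day 7 at -1.56 to 0.16. Cdx1 by origin at day 1 was then at -0.62 to 0.13. For EpiSC against Neural from 2iL alone, Axin2 was at 0.27, Ngfr at -1.15, Notum at -0.34 and Sp5 at 0.67, and from SL alone Tcf7l1 was at -0.27. The cause was not tested.

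Over all genes, the count called fell without the replicate block from 4663 to 3053 (2iL day 1), 2405 to 952 (SL day 1), 4186 to 2511 (SL day 3), 1391 to 493 (change between media) and 2268 to 1184 (origin at day 1). Without the EpiSC libraries these counts were 1884, 787, 2759, 260 and 427, and 5208 against 8377 at day 3 from 2iL; without the Neural ones they were 2582 (2iL day 1), 701 (change between media) and 1026 (origin at day 1). With the libraries of the 2 days alone it fell from 8377 to 5441 (2iL day 3) and 10377 to 6750 (day 7). For EpiSC against Neural it was 3771 with DESeq2 against 2477, and 0 (2iL) and 435 (SL) within a medium.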
